A study of Mus musculus with 6 samples.

Results

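The islet hormone genes were examined in RNA-seq of pancreatic islets from FXR+/+ mice, labelled wild type (WT), and FXR-/- mice, labelled FXR knockout (KO). FXR, encoded by *Nr1h4*, is a nuclear receptor for bile acids. The 8 genes *Ins1*, *Ins2*, *Iapp*, *Gcg*, *Sst*, *Ppy*, *Pyy* and *Ghrl* were chosen by symbol from the 19342 genes counted, and all 8 were found and passed the filter on low counts. Each genotype was represented by 3 libraries, named female 1, male 1 and male 2, from mice aged 3 months whose islets had been freed from the pancreas with collagenase P. The knockout mice were of the C57Bl/6 strain, and the labels name no drug or diet for either genotype. The labels do not say whether a library holds the islets of 1 mouse or of several, so the p-values measure only the spread between libraries.

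Islets are clusters of endocrine cells scattered in the exocrine pancreas, and each of their cell types is defined by the hormone it stores. Beta cells release insulin, which lowers blood glucose, together with amylin, and alpha cells release glucagon, which raises it. Delta, PP and epsilon cells make somatostatin, pancreatic polypeptide and ghrelin, which restrain or tune the other cells and the gut, and all of these peptides are cut from larger precursors inside secretory granules. Mice, unlike most mammals, carry a pair of insulin genes.

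The targeted gene was lower in the libraries labelled knockout but not absent. *Nr1h4* was at 14.2, 13.6 and 12.2 CPM (counts scaled to a common library size by TMM, the edgeR method that corrects for library composition) in the FXR+/+ libraries and at 5.67, 7.63 and 5.81 CPM in the FXR-/- libraries. The genotypes did not overlap, but reads remained in each knockout library and the difference was not called (edgeR log2 fold change −1.07, SE 0.160, adjusted p = 0.217). The libraries held 20629306 to 30139235 gene counts. RNA of the exocrine pancreas was present in all of them: 28 acinar marker genes, such as trypsinogens and elastases, took 5.27% to 14.7% of the counts in FXR+/+ and 7.68% to 15.3% in FXR-/-. Defining markers of beta, alpha and delta cells other than the hormones were counted in every library.

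The 8 hormone genes together held 22.1% to 28.5% of all gene counts, and this share did not separate the genotypes. It was 25.2%, 22.1% and 26.7% in FXR+/+ female 1, male 1 and male 2, and 24.5%, 23.3% and 28.5% in the same-named FXR-/- libraries. The means were 24.6% ± 2.33 and 25.4% ± 2.73 (SD, n = 3 each), and the difference of 0.776 percentage points gave p = 0.8 in a two-sided exact permutation test over 20 relabellings, whose smallest possible p is 0.1. With the acinar marker genes taken out of the total, the means were 26.9% ± 1.12 and 28.5% ± 2.65 (exact permutation p = 0.6). Of the exon counts, which were also deposited, the hormone genes held less, at 11.3% to 15.2%. The means were then 12.0% ± 0.719 and 13.4% ± 1.97 (exact permutation p = 0.4). Both insulin genes alone held 17.5% to 23.9% of the counts. In bulk RNA, fewer cells of a type and less RNA per cell cannot be told apart.

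**Figure D1:**
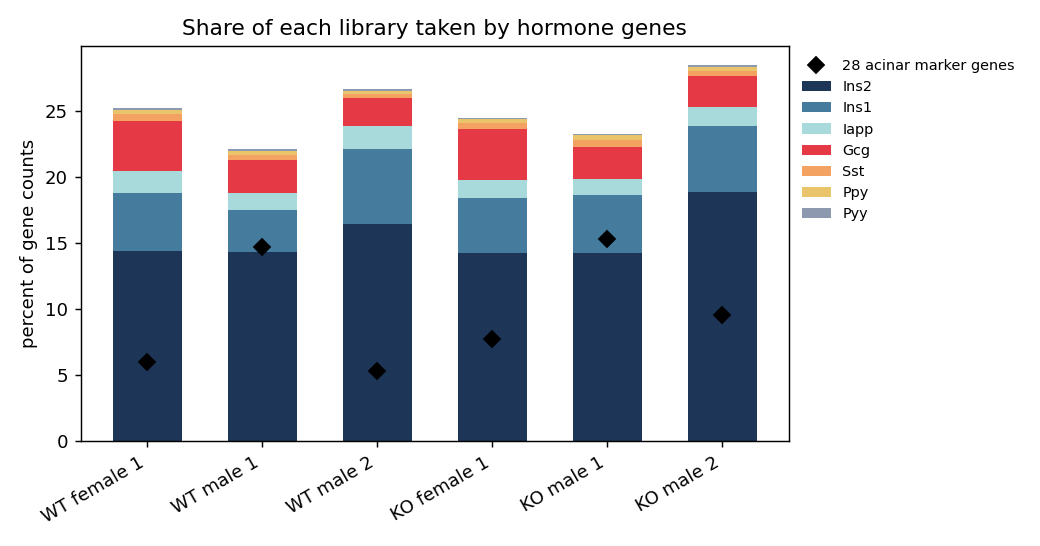
Percent of all gene counts taken by each hormone gene (stacked bars) and by 28 acinar marker genes (black diamonds) in each of the 6 libraries; *Ghrl* is too low to draw. The bars reach from 22.1% to 28.5% and the genotypes overlap, while the diamonds are highest in male 1 of both genotypes.

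Within the hormone counts the order of the genes was much the same in all libraries. Levels of different genes were compared as CPM per kilobase of the exons listed for each gene. *Ins2* ranked 1 of the 18973 genes with a listed length, at 265398 ± 42302 CPM per kilobase (SD, n = 6), and *Ins1* ranked 2, at 75452 ± 14525. *Gcg* ranked 3 at 25906 ± 5621 and *Iapp* 5 at 20700 ± 2319. These neighbours overlapped: *Gcg* was the lower of the pair in FXR+/+ male 2. *Sst*, at 7009 ± 1461, and *Ppy*, at 6543 ± 1343, overlapped too and ranked 8 and 10. *Pyy* ranked 21 at 2574 ± 367, with no library at the level of *Ppy*. *Ghrl* stood far below the rest, at rank 8470 and 4.92 ± 1.21 CPM per kilobase. This order rests on the gene counts and changed with the deposited exon counts. Summed over exons, *Ins1* held 292874 to 645964 counts a library and *Ins2* 225652 to 465903, with *Ins2* the higher in FXR+/+ male 1 only. *Iapp* held 117598 to 262221 and *Gcg* 43473 to 93066. *Ppy* held 355 to 695, against 25110 to 34534 for *Sst*.

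**Figure D2:**
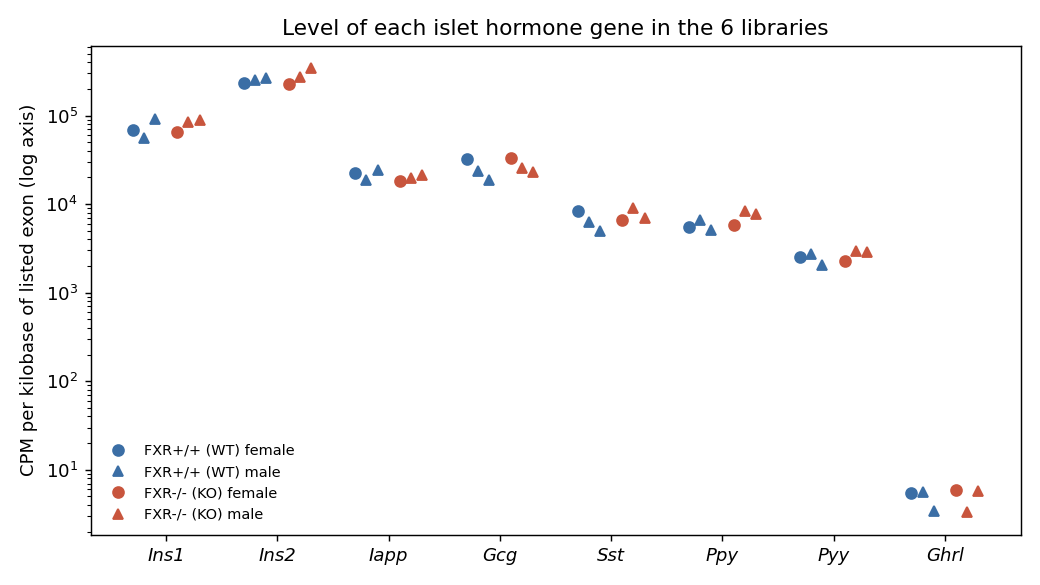
Level of each hormone gene, as CPM per kilobase of listed exon on a log axis, in FXR+/+ (blue) and FXR-/- (red) libraries, with circles for female and triangles for male. The symbols of the genotypes lie among each other for all 8 genes, and *Ghrl* lies far below the others.

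None of the 8 genes was called between the genotypes by edgeR's quasi-likelihood test with terms for sex and genotype. The same was true of all 14619 genes tested (0%), so the absence of a call is no property of the hormone genes: the lowest adjusted p of any gene was 0.129. At an unadjusted p under 0.05 the test passed 1511 genes (10.3%) and 0 of the 8. The most abundant of the 8 could hardly pass, given their standard errors in this fit. On the log2 scale these were 3.06 for *Ins2*, 1.21 for *Ins1*, 0.861 for *Gcg* and 0.540 for *Iapp*. With edgeR's legacy dispersion estimates they were 0.317, 0.289, 0.233 and 0.213, and the lowest unadjusted p of the 8 was 0.108, for *Ppy*. The CPM values of the genotypes overlapped for all 8 hormone genes, against 15.4% of all genes without overlap. With same-numbered libraries as a block edgeR called 23 genes (0.157%), and DESeq2 called 170 (1.21%), with 0 hormone genes in either. The hormone genes had a median log2 fold change of 0.14 and 7 of 8 above 0, beside a median of 0.0084 and 51.6% above 0 for all genes.

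*Ins2* and *Ins1* encode the 2 mouse insulins. *Ins2* (gene ID 16334) lies on the reverse strand of chromosome 7 at 142678656 to 142679726 of GRCm38 and has an intron that splits its coding part. *Ins1* (gene ID 16333) lies on the forward strand of chromosome 19 at 52264297 to 52265015. Their coding sequences in GENCODE vM21, of 330 bases in *Ins2* and 324 in *Ins1* without the stop codon, are identical at 300 of 330 aligned positions (90.9%), so how reads were shared between them bears on every value of either gene. The stretch of 90 aligned positions with the most differences, which lies in the part coding for the connecting peptide and the start of the A chain, is shown for both genes, 5′ to 3′, with capitals for bases that differ from or are missing in the other gene. It lies at chr19:52264810-52264893 in *Ins1* and, but for its first base in the exon before, at chr7:142678770-142678858 in *Ins2*.
Ins1: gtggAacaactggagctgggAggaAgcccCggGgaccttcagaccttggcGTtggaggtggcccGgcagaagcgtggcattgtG
Ins2: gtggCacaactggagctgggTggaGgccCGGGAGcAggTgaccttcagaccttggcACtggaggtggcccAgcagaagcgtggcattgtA

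Directly after it comes the longest run of coding bases that the genes share, 54 bases, printed here because a read inside it cannot be assigned to either gene (chr19:52264894-52264947 in *Ins1* and chr7:142678716-142678769 in *Ins2*).
shared run: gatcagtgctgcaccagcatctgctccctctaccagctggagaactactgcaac

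*Ins2* was at 134603, 146173 and 156034 CPM in FXR+/+ female 1, male 1 and male 2, and at 132377, 159270 and 199905 CPM in the FXR-/- libraries in the same order. The knockout male 2 was the highest of all, while both females were lower than the 4 males. The log2 fold change of FXR-/- over FXR+/+ was 0.16 (adjusted p = 0.986, edgeR), with a 95% interval of −0.58 to 0.90 from edgeR's legacy dispersion estimates, which are used here for all intervals. *Ins1* was at 40990, 32792 and 54075 CPM in FXR+/+ and at 38743, 49733 and 53032 CPM in FXR-/-. The lowest and the highest library were both FXR+/+. Its log2 fold change was 0.13 (interval −0.54 to 0.81, edgeR adjusted p = 0.971), and without FXR+/+ male 1 it was −0.082.

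*Iapp* encodes amylin, which beta cells release with insulin. It is gene ID 15874 on the forward strand of chromosome 6 at 142298425 to 142303820, inside the span of *Slco1a5* on the opposite strand, and the counting is not stated to use strand. *Iapp* was at 15471, 12879 and 16818 CPM in FXR+/+ and at 12724, 13579 and 14847 CPM in FXR-/-. It was the 1 hormone gene whose knockout mean was the lower, with overlapping groups (log2 fold change −0.14, interval −0.63 to 0.36, edgeR adjusted p = 0.935).

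*Gcg* encodes proglucagon, which alpha cells cut to glucagon. It is gene ID 14526 on the reverse strand of chromosome 2 at 62474530 to 62483653. *Gcg* was at 35191, 25748 and 20218 CPM in FXR+/+ and at 35866, 27563 and 24995 CPM in FXR-/-. The knockout library was the higher in all 3 same-numbered pairs, by 1.02, 1.07 and 1.24 times, but the females and males of one genotype lay further apart than that. Of all genes tested, 20.4% were higher in all 3 pairs. The log2 fold change was 0.14 (interval −0.41 to 0.68, edgeR adjusted p = 0.959).

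*Sst* encodes somatostatin, the delta-cell peptide that holds back insulin and glucagon release. It is gene ID 20604 on the reverse strand of chromosome 16 at 23889573 to 23891342. *Sst* was at 4943, 3750 and 2954 CPM in FXR+/+ and at 4001, 5416 and 4125 CPM in FXR-/-. The female pair and the male pairs went opposite ways, at 0.809 times in the female pair and 1.44 and 1.40 times in the males. The log2 fold change was 0.24 (interval −0.31 to 0.79, edgeR adjusted p = 0.769). The interaction of genotype with sex was not called (log2 0.81, SE 0.657, edgeR adjusted p = 1.00), nor was it for any gene.

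*Ppy* encodes pancreatic polypeptide and *Pyy* peptide YY, members of 1 peptide family. Both lie on the reverse strand of chromosome 11, *Ppy* (gene ID 19064) at 102099931 to 102101319 and *Pyy* (gene ID 217212) at 102106676 to 102107832, with 5356 bases between them. Their coding sequences, of 300 bases each, were identical at 52.2% of aligned positions and shared no run of over 8 bases, in contrast to the insulin genes. *Ppy* was at 2656, 3182 and 2448 CPM in FXR+/+ and at 2754, 4063 and 3742 CPM in FXR-/-. The knockout was the higher in every pair, as for 20.4% of all genes tested. It was so by 1.04, 1.28 and 1.53 times, though knockout female 1 lay within the FXR+/+ range. This was the largest of the 8 log2 fold changes, 0.33 (interval −0.093 to 0.76, edgeR adjusted p = 0.595), and DESeq2 gave it an adjusted p of 0.329.

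*Pyy* was at 1261, 1369 and 1022 CPM in FXR+/+ and at 1125, 1484 and 1446 CPM in FXR-/-. The groups overlapped, and the knockout female was below its FXR+/+ counterpart while both knockout males were above theirs. The log2 fold change was 0.14 (interval −0.26 to 0.54, edgeR adjusted p = 0.767), and −0.015 without FXR+/+ male 2.

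*Ghrl* encodes ghrelin, the peptide of the rare epsilon cells. It is gene ID 58991 on the reverse strand of chromosome 6 at 113716119 to 113719911, where GENCODE also lists *Gm26982* and *Gm44033* on the forward strand. Raw counts of the gene were 71, 64 and 61 in the FXR+/+ libraries, against 81, 35 and 77 for FXR-/-, which is 3.03, 3.17 and 1.93 CPM and 3.28, 1.84 and 3.24 CPM. The lowest library, knockout male 1, and the next lowest, FXR+/+ male 2, were of different genotypes. In knockout male 1 the share of counts was 0.000164% (95% exact interval 0.000114% to 0.000228%), against 14.2% (14.19% to 14.22%) for *Ins2* in the same library. These intervals cover counting error only. The log2 fold change of *Ghrl* was 0.061 (legacy estimate 0.053, interval −0.66 to 0.77, edgeR adjusted p = 0.945), and it was −0.021 when libraries were scaled by size alone.

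**Figure D3:**
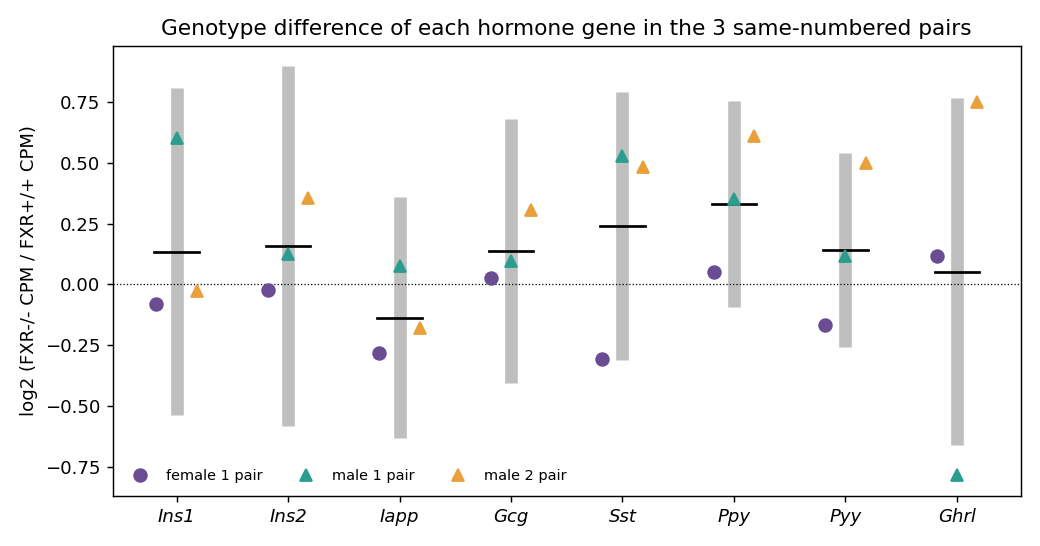
Log2 ratio of FXR-/- to FXR+/+ CPM for each hormone gene in the 3 same-numbered pairs (symbols), with edgeR's log2 fold change (black bar) and its 95% interval from the legacy dispersion estimates (grey). Every interval includes 0, and the 3 symbols lie on 1 side of 0 for *Gcg* and *Ppy* only, above it. Of all genes tested, 20.4% were higher in FXR-/- in all 3 pairs.

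Ratios within a library do not depend on its size or scaling, and 7 of them were compared between the genotypes. With 20 relabellings the smallest p is 0.1, so none could pass 0.05 and the values are given as a description. All of them are ratios of gene counts. *Ins1* counts were 0.305, 0.224 and 0.347 times those of *Ins2* in FXR+/+ and 0.293, 0.312 and 0.265 times in FXR-/-, with means of 0.292 ± 0.0621 and 0.290 ± 0.0236 (SD, n = 3; exact permutation p = 1). The level of this ratio depends on the counts used: in summed exon counts *Ins1* exceeded *Ins2* in every library but FXR+/+ male 1. Its log2 difference between genotypes was 0.011 with gene counts and 0.13 with exon counts. *Iapp* was counted 88.1, 72.0 and 80.0 times per 1000 insulin counts (*Ins1* plus *Ins2*) in FXR+/+ and 74.4, 65.0 and 58.7 times in FXR-/-. The knockout was the lower in all 3 pairs and the groups overlapped only through 1 library of each genotype. The log2 difference of −0.28 had the lowest p of the 7 ratios tested (exact permutation p = 0.2, adjusted p = 1).

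The other hormones per 1000 insulin counts ranged across the 6 libraries from 96.2 to 210 for *Gcg*, from 14.1 to 28.2 for *Sst* and from 11.6 to 19.4 for *Ppy*. *Pyy* ranged from 4.86 to 7.65 and *Ghrl* from 0.00881 to 0.0192. The log2 differences between genotypes were −0.0075 for *Gcg*, 0.084 for *Sst*, 0.19 for *Ppy*, −0.00054 for *Pyy* and −0.12 for *Ghrl*. Their exact permutation p lay between 0.5 and 1, with each adjusted p at 1. *Ppy* per insulin was the higher in the knockout in all 3 pairs.

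The exon counts that the authors also deposited covered the hormone genes unevenly. They came to 45.5% to 51.2% of the gene counts for *Iapp* and 37.7% to 47.7% for *Ins1*, but to 7.14% to 10.9% for *Ins2*, 8.37% to 10.5% for *Gcg* and 0.570% to 0.781% for *Ppy*. Of 28 exons listed for the 8 genes, 20 were tested and 0 were called by edgeR, where 5 of 26998 exons (0.0185%) were called in all. At an unadjusted p under 0.05 there were 3, beside 7.79% of all exons: exon 2 of *Iapp*, exon 2 of *Gcg* and exon 1 of *Pyy*, each a low one upstream in its gene.

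The exons of *Gcg* had log2 fold changes of both signs. Its last exon (62474530 to 62474984) held 84466, 41995 and 65291 counts in FXR+/+ and nearly all exon counts of the gene, and its log2 fold change was 0.12. The 5 exons before it had 100 to 634 counts in the libraries, and their log2 fold changes lay between −0.31 and −0.49. In exon 2 the counts were 409, 239 and 283 in FXR+/+ and 275, 141 and 193 in FXR-/-. After adjustment over all exons, edgeR called neither the last exon (adjusted p = 0.865) nor exon 2 (adjusted p = 0.598).

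*Gcg* was also compared between the sexes, a comparison added after the values were seen. The 2 female libraries held 35191 and 35866 CPM and the 4 male libraries 20218 to 27563 CPM, with no overlap. Per 1000 insulin counts *Gcg* stood at 200.4 and 210 in the females and at 96.2 to 144 in the males, 1.77-fold apart (exact permutation p = 0.0667 over 15 relabellings, the smallest they can give, adjusted p = 0.35 over the 7 ratios). The male over female log2 fold change of *Gcg* was −0.53 (SE 0.897, edgeR adjusted p = 0.889). With edgeR's legacy estimates the SE was 0.243 and the adjusted p 0.685. DESeq2 gave an adjusted p of 0.0052 and called 83 genes by sex (0.591%). These tests treat the 6 libraries as independent, but same-numbered libraries deviated together. By pair the comparison is 1 female pair against 2 male pairs, so the p-values of all these tests, edgeR's calls by sex included, may be too small. Sex was not taken out of the deviations, so the female pair could correlate through sex itself. By edgeR 8 genes were called by sex (0.0547%), 0 of them a hormone gene.

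Both females were above all 4 males for 1149 genes (7.86%), and among the hormone genes for *Gcg* alone. They were below all males for 1175 genes (8.04%), and among the hormone genes for *Ins2* alone. Alpha-cell markers other than *Gcg* moved with it in sum: the 9 genes together took 0.328% to 0.335% of the counts in the females and 0.204% to 0.265% in the males, with both females above all males for 4 of 9. This was not particular to alpha cells. The 7 delta-cell markers took 0.0363% in both females and 0.0294% to 0.0323% in the males. Beta-cell markers overlapped, at 0.468% to 0.501% and 0.388% to 0.517%. All of these are shares of counts without TMM scaling. The part of the number of alpha cells in the difference was not tested. With 1 female per genotype, litter and islet preparation cannot be told apart from sex. The direction for *Gcg* held in each of the 6 fits that left out a library and under the 2 other scalings. With scaling by library size alone it was −0.69, where the median of all genes moved to −0.15.

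**Figure D4:**
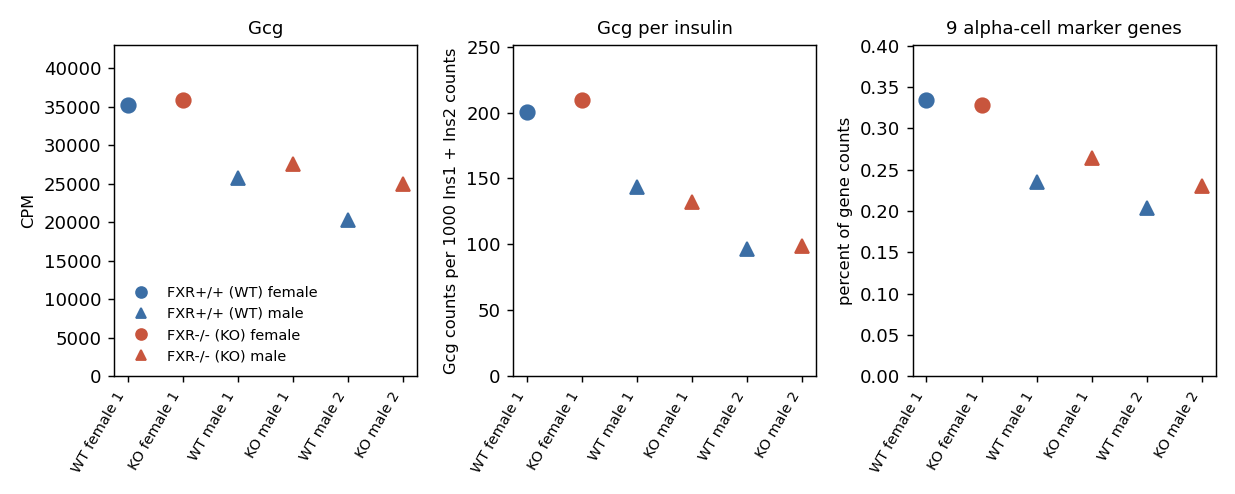
*Gcg* as CPM (left), *Gcg* per 1000 insulin counts (middle) and the summed share of 9 alpha-cell marker genes other than *Gcg* (right) in the 6 libraries, with circles for female and triangles for male and blue for FXR+/+ and red for FXR-/-. In each panel both circles lie above all 4 triangles.

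Other peptide genes were compared between the genotypes in the same fit. Of 20 further peptide genes that islets or their nerves can express, 13 passed the filter on low counts, and all 13 had a log2 fold change above 0. Their median was 0.81, against 0.14 for the hormone genes and 0.0084 for all genes, and 8 of 13 had an unadjusted p under 0.05 where 10.3% of all genes did. The list was chosen with earlier results of these data known, so its shares are a description and no independent test. The main test called 0 of them. The genotypes did not overlap for 6 of 13, all higher in FXR-/-, a pattern found in 8.02% of all genes. The number above 0 was 12 or 13 in each fit on gene counts in which all 13 were tested, and 9 of 11 with summed exon counts. The median moved to 1.27 without FXR+/+ male 1 and to 0.51 without FXR+/+ male 2.

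*Grp* encodes gastrin-releasing peptide, which nerves of the pancreas release. It was at 0.639, 1.39 and 0.758 CPM in FXR+/+ and at 4.29, 4.47 and 3.49 CPM in FXR-/-. Each knockout library was above each FXR+/+ library (log2 fold change 2.18, SE 0.311, edgeR adjusted p = 0.197). With the replicate block edgeR gave an adjusted p of 0.0441 and DESeq2 of 4.5e-05, so the call depends on the method.

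*Vgf* encodes a precursor of several granule peptides in neurons and endocrine cells. It was at 22.2, 26.9 and 18.9 CPM in FXR+/+ and at 33.3, 51.9 and 40.6 CPM in FXR-/-. The groups did not overlap (log2 fold change 0.87, SE 0.170, edgeR adjusted p = 0.244), and the gene was called with the replicate block (adjusted p = 0.0441) and by DESeq2 (adjusted p = 0.0012). The 2 most abundant genes of the list were not called by any fit: *Ucn3*, the beta-cell peptide urocortin 3, had a log2 fold change of 0.18 (SE 0.0930) from 451 ± 65.5 to 509 ± 52.6 CPM, and *Nucb2*, the precursor of nesfatin, 0.32 (SE 0.0998) from 164 ± 16.0 to 208 ± 49.2 CPM (SD, n = 3). With summed exon counts the log2 fold change of *Nucb2* turned to −0.75 (edgeR adjusted p = 0.476).

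*Cartpt*, *Gal* and *Vip*, chosen after their values were seen, encode peptides known from nerves and, for the first, from islet cells. *Cartpt* was at 0.980, 1.49 and 0.852 CPM in FXR+/+ and at 2.71, 3.37 and 2.36 CPM in FXR-/-. *Gal*, for galanin, was at 8.52, 12.9 and 5.84 CPM and at 12.8, 26.5 and 16.1 CPM. *Vip* was at 13.2, 19.4 and 6.79 CPM and at 30.3, 23.7 and 23.1 CPM. The genotypes were apart for *Cartpt* and *Vip* and met for *Gal*, and edgeR called none of them (adjusted p = 0.286, 0.430 and 0.450).

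Markers of cells other than endocrine cells were counted beside them. Log2 fold changes were above 0 for 9 of 9 endothelial markers (median 0.51), 9 of 9 stellate and fibroblast markers (0.76), 7 of 8 macrophage markers (0.43) and 26 of 28 acinar markers (0.44), with 0 called. The endothelial markers took 0.0601% to 0.0665% of the counts in FXR+/+ and 0.0727% to 0.101% in FXR-/-. In lists added after the values were seen, 9 of 9 glial and Schwann cell markers were above 0 (median 0.55), at 16.0 to 28.7 CPM in sum in FXR+/+ and 26.6 to 29.4 CPM in FXR-/-, and 5 of 9 neuron markers (median 0.32). The part of these cells in the peptide genes was not tested. Endocrine markers other than hormones had medians of 0.057 for beta, 0.14 for alpha and 0.11 for delta cells.

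**Figure D5:**
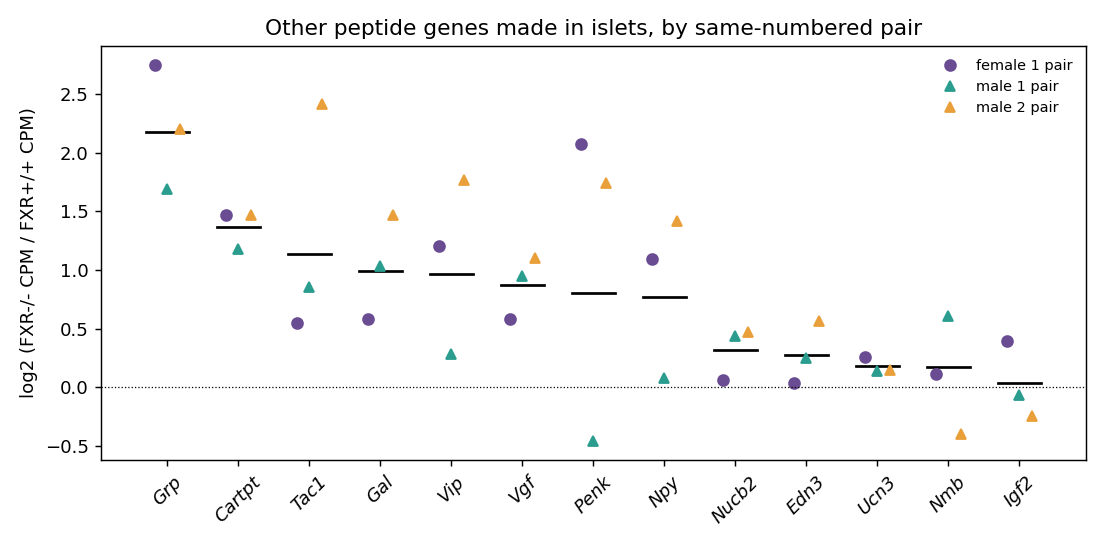
Log2 ratio of FXR-/- to FXR+/+ CPM in the 3 same-numbered pairs (symbols) and edgeR's log2 fold change (bars) for the 13 other peptide genes tested. All 13 bars lie above 0, and all 3 symbols lie above 0 for 10 genes, a pattern found in 20.4% of all genes tested.

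Of 18 enzymes listed that help turn prohormones into hormones, 17 were counted and tested, with 11 above 0, 6 below, a median log2 fold change of 0.058 and 0 called. *Pcsk2*, the convertase that cuts proglucagon and proinsulin, was at 3969 ± 203 CPM in FXR+/+ and 4085 ± 143 CPM in FXR-/- (SD, n = 3). *Cpe*, carboxypeptidase E, which trims the cut peptides, was at 3774 ± 180 and 3937 ± 359 CPM. *Sec11c*, a catalytic subunit of the signal peptidase, had the lowest unadjusted p of the list, with a log2 fold change of 0.33 (SE 0.0958, edgeR adjusted p = 0.424) that turned to −0.16 with summed exon counts, and *Cpd*, carboxypeptidase D, came next at −0.19 (SE 0.0922, edgeR adjusted p = 0.498).

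Granule proteins had 6 of 15 above 0, a median log2 fold change of −0.016 and 0 called. *Chga*, chromogranin A, was at 11245 ± 1053 CPM in FXR+/+ and 12032 ± 578 CPM in FXR-/-, and *Scg2*, secretogranin II, at 5277 ± 512 and 5433 ± 339 CPM (SD, n = 3). *Ptprn*, the granule membrane protein IA-2, went from 533 ± 47.8 to 734 ± 111 CPM (log2 fold change 0.45, SE 0.109, edgeR adjusted p = 0.334, DESeq2 adjusted p = 0.00021). *Syt4*, a synaptotagmin of the granule membrane, went from 134 ± 26.8 to 109 ± 13.2 CPM (−0.30, SE 0.139, edgeR adjusted p = 0.487).

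Of 21 receptors for islet hormones and related peptides, 15 were tested, with 10 above 0, 5 below, a median of 0.11 and 0 called. The most abundant were *Sstr3*, a somatostatin receptor, at 299 ± 36.6 and 257 ± 31.0 CPM in FXR+/+ and FXR-/-, and *Glp1r*, the receptor of the incretin GLP-1, at 194 ± 27.4 and 210 ± 36.2 CPM (SD, n = 3). The lowest unadjusted p values were those of *Crhr1*, a receptor of corticotropin-releasing hormone, with a log2 fold change of 1.15 (SE 0.309, edgeR adjusted p = 0.369), and of *Ramp2*, a partner of the calcitonin receptor family, at 0.36 (SE 0.128, edgeR adjusted p = 0.452).

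Of 22 transcription factors that act on hormone genes, 20 were tested, with 12 above 0, 8 below, a median of 0.065 and 0 called. *Mafa*, an activator of the insulin genes in mature beta cells, was at 318 ± 5.01 CPM in FXR+/+ and 473 ± 24.5 CPM in FXR-/- (SD, n = 3), a log2 fold change of 0.57 (SE 0.0880, edgeR adjusted p = 0.217, 0.0667 with the replicate block). *Isl1*, a homeodomain factor of all islet endocrine cells, was at 148 ± 9.22 and 106 ± 11.8 CPM, a log2 fold change of −0.48 (SE 0.0988, edgeR adjusted p = 0.266, 0.0978 with the block). DESeq2 called both, with adjusted p of 9.7e-11 for *Mafa* and 0.0023 for *Isl1*. *Nkx6-1*, a beta-cell homeodomain factor, had a log2 fold change of 0.37 (SE 0.140, edgeR adjusted p = 0.457). The values of *Ins1* and *Ins2*, given above, overlapped between the same libraries.

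The sequences before the annotated starts of *Ins1*, *Gcg* and *Ppy* are shown because factors such as these act near the starts of genes. Whether islets use these starts was not tested. Exon 1 of *Ins1*, directly after its window, held 5 to 15 counts a library, against 292862 to 645949 in exon 2. A motif missing from a window may lie outside it. RefSeq windows of GRCm38.p6 were matched for 7 of the 8 genes, all but *Ins2*, and 1 window a gene was read, at its most upstream start in the table. Of 32851 windows of the 150 bases before a gene start, 37.8% hold TAAT or its reverse complement ATTA, letters found in many homeodomain sites. The motif is in the window read for *Ins1*, *Iapp*, *Gcg* and *Sst* and not in the one read for *Ppy*, *Pyy* and *Ghrl*, of which *Pyy* and *Ghrl* have further windows that were not searched. The window of *Sst* lies inside the gene span given above, and 114 of its bases are exon of another GENCODE transcript. TGACGTCA, the full cyclic AMP response element, is in the window of *Sst* and in 1.36% of all windows. TGCTGA or its reverse complement TCAGCA, part of the MAF recognition element, is in the window of *Ppy* and in 10.1% of all. A match of letters is a description and does not show that a factor binds. In the windows below, capitals mark TAAT or ATTA, and the last base lies directly before the annotated start. They are at chr19:52264147-52264296 (forward), chr2:62483654-62483803 (reverse) and chr11:102101320-102101469 (reverse).
Ins1: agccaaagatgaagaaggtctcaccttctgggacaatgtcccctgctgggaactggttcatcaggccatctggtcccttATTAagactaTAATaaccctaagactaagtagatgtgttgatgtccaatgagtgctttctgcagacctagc
Gcg: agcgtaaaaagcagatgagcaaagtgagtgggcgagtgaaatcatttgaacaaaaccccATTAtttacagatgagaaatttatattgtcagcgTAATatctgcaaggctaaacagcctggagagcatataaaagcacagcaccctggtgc
Ppy: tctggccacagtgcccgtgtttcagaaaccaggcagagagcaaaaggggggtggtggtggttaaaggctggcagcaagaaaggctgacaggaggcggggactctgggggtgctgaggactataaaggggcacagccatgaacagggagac

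Genes that varied most like each hormone gene over the 6 libraries were found by Pearson r of log2 CPM among 9200 other genes of at least 10 CPM. For *Ins1* they were *Phf20*, *H2afy2* and *Wipi1* (r 0.974 to 0.979), for *Ins2* *D10Jhu81e*, *Esrra* and *Isca2* (0.986 to 0.991), and for *Iapp* *Ube2z*, *Abce1* and *Cript* (0.980 to 0.989). For *Gcg* they were *Trp53i11*, *Cadm1* and *Sgce* (0.978 to 0.991), for *Sst* *Palm*, *Gpatch1* and *Pnpla2* (0.976 to 0.984), and for *Ghrl* *Bbs9*, *Nrde2* and *Xylt2* (0.978 to 0.981). *Ppy* had *Reep5*, *Gpx1* and *Vps9d1* (0.995 to 0.996) and *Pyy* had *Rpl29*, *Atox1* and *Sil1* (0.981 to 0.987). With only 6 libraries such values are common: r was over 0.9 for 40 genes with *Ghrl* and for 403 with *Ppy*. The libraries share sex, pair and depth across all of these genes.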

How the data were processed

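RNA-seq libraries were made from islets after enrichment of poly(A) RNA and random priming. Per the labels the notes on processing name HISAT. Its version, the counter and the use of strand are not given in the sources used here. The authors deposited raw counts per gene and per exon, not normalized, the exons at positions of GRCm38. A comparison of the genotypes that the authors also deposited holds a mean, log2 fold changes, p-values and q-values of their own and was not used. No value column was left unmapped (0).

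The genotypes were compared on the gene counts by edgeR 4.0.16 in R 4.3.3 (filterByExpr with minimum count 10 and minimum total 15, library sizes recomputed, TMM, glmQLFit, glmQLFTest, terms for sex and genotype), adjusted by Benjamini and Hochberg and called at an adjusted p under 0.05. Intervals and their standard errors for the hormone genes came from edgeR's legacy dispersion estimates, because the current estimates gave *Ins2* a standard error of 3.06 beside SDs of log2 CPM of 0.107 and 0.298 within the genotypes. Exon counts were tested in the same way. Ratios and shares were compared by two-sided exact permutation over 20 relabellings. Coding sequences were aligned with Biopython 1.88.

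Same-numbered libraries were taken as pairs: their deviations from the genotype means correlated at 0.346 to 0.419 across genes, and those of other pairs at 0.0628 or below. Deviations sum to 0 within a genotype, so a positive r in the same-numbered pairs by itself lowers the others. The female pair shares its sex, and male 1 of both genotypes had the most acinar RNA (14.7% and 15.3%). What the library numbers stand for is not stated. Every pair of libraries differed by more than sampling noise, so none was counted as a duplicate. Depth was 20629306 to 30139235 counts per library. The alternatives were a fit without sex, the replicate block, males alone, DESeq2 1.42.0, legacy estimates, other scalings and filters, acinar genes left out, summed exon counts, and each library left out. The hormone genes and all lists were chosen with earlier results of these data known. Genes named were the 8 hormone genes, the 3 genes most like each of them and, per list, the 2 most abundant and the 2 of lowest unadjusted p. *Cartpt*, *Gal* and *Vip* fall outside that rule and were added after their values were seen.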

Additional observations from a re-analysis of the deposited data

How the results depend on the processing

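No alternative called a hormone gene. Over all settings their log2 fold changes ran from −0.082 to 0.33 for *Ins1*, 0.033 to 0.25 for *Ins2*, −0.26 to −0.041 for *Iapp*, 0.029 to 0.22 for *Gcg*, 0.042 to 0.51 for *Sst*, 0.19 to 0.47 for *Ppy*, −0.015 to 0.37 for *Pyy* and −0.18 to 0.28 for *Ghrl*. With single libraries left out, which gave all but the highest value of *Pyy* (then 0.29), signs turned for *Ins1* (−0.082 without FXR+/+ male 1), *Pyy* (−0.015 without FXR+/+ male 2) and *Ghrl* (−0.11 without FXR+/+ male 2, −0.18 without FXR-/- male 2), and *Ghrl* also turned with scaling by library size alone (−0.021), which moves the median of all genes to −0.087. The replicate block called 23 genes, DESeq2 170 and summed exon counts 4, and leaving out a library called 0. With the block the log2 fold change of *Ppy* was 0.34 (edgeR adjusted p = 0.481), and among the genes named it changed no call but those of *Grp* and *Vgf*. Ratio differences with a library left out ran from −0.17 to 0.15 (*Ins1* over *Ins2*), and per insulin −0.37 to −0.20 (*Iapp*), −0.30 to 0.25 (*Gcg*), −0.18 to 0.32 (*Sst*), 0.023 to 0.33 (*Ppy*), −0.20 to 0.12 (*Pyy*) and −0.43 to 0.15 (*Ghrl*). *Pyy* per insulin turned to 0.18 with exon counts and 0.063 in males alone. The hormone share ran from −0.764 to 1.84 percentage points. Other genes turned with exon counts (*Nucb2* −0.75, *Sec11c* −0.16, *Glp1r* −0.093), with library size alone (*Pcsk2* −0.053, *Cpe* −0.040, *Scg2* −0.052), in males alone (*Glp1r* −0.10), or without a library (*Cpe* −0.0052 to 0.13, *Scg2* −0.040 to 0.15, *Glp1r* −0.10 to 0.26). The cause was not tested. *Ghrl* rests on 35 to 81 counts a library, and 3 libraries a genotype leave intervals that reach 1.28-fold to 1.86-fold upward.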
